A study of Homo sapiens with 8 samples.

Results

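The integrated stress response genes described here were ATF4 and 9 genes of its program, namely ATF3, DDIT3, TRIB3, CHAC1, SESN2, DDIT4, ASNS, PSAT1 and PHGDH. They were taken by symbol from the gene count table, in which each of the 10 symbols had an entry among 25369 named genes. All 10 passed the filter on low counts, which left 17714 genes tested. RNA-seq had been run on UWB1.289, an ovarian cancer cell line with a BRCA1 mutation (BRCA1-null), and on the same line transduced with BRCA1 (BRCA1+). Each line was treated for 24 h with 0.5 uM entinostat, an inhibitor of class I histone deacetylases, or with the solvent DMSO as control, which gave 4 groups of 2 libraries. The lines share a parent and the UWB1.289 background, the labels name no vector-only control for the transduction, and the comparison rests on 1 pair of lines. Nothing in the labels says that the 2 libraries of a group came from separate cultures, so p-values measure the spread between these libraries, which may be technical.

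The integrated stress response is set off when eIF2 kinases sense amino acid shortage, unfolded protein in the endoplasmic reticulum, heme lack or double-stranded RNA and phosphorylate eIF2. Bulk protein synthesis then falls while the ATF4 mRNA, which carries upstream open reading frames, is translated more, so that ATF4 activity can change with little change in its mRNA. ATF4 pairs with other basic leucine zipper factors on composite response elements and raises genes for amino acid synthesis, uptake and tRNA charging, for growth control through mTORC1, and for feedback and cell death.

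The libraries held 31900158 to 53549893 counts, and 3 counts corresponded to 0.0552 to 0.0946 CPM (counts divided by the TMM-scaled library size and multiplied by 1e+06). Members were counted 197 to 21825 times per library, so that none was near that floor. BRCA1 mRNA stood at 92.4 to 133 CPM in the 4 BRCA1+ libraries and at 17.6 to 22.4 CPM in the 4 BRCA1-null libraries. The mutation truncates the protein and leaves the gene in place, so BRCA1-null cells were still counted for it. PAX8, a Müllerian lineage factor, stood at 329 to 419 CPM, and KRT7, KRT8, KRT18, EPCAM and MUC16 were also detected throughout. WT1, another marker of serous ovarian carcinoma, was at or near 0, with 1 to 20 counts per library. The 7 markers of immune, endothelial and muscle cells summed to 27.6 to 29.1 CPM in the BRCA1+ DMSO libraries, 36.4 to 36.5 with entinostat, 37.5 to 40.1 in BRCA1-null DMSO and 42.5 to 50.1 in BRCA1-null entinostat, with CD3E at 0 to 4 counts. CD68, at 8.58 to 30.9 CPM, and MYH11, at 8.24 to 12.4 CPM, were the highest of the 7. In DMSO, mean CD68 was 9.01 CPM in BRCA1+ and 21.2 CPM in BRCA1-null cells, and VWF 1.2 and 2.71 CPM. PECAM1 went the other way, at 5.42 and 2.87 CPM. Of the 5 markers tested between lines in DMSO, 2 were higher in BRCA1-null cells at an adjusted p under 0.05 (edgeR) and 0 lower, or 40.0% beside 42.2% of all tested genes. The part of these markers in the results below was not tested.

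A total of 3 members carried the core of the composite element, TGATGNAA, in a RefSeq promoter window, 250 bases before to 50 after a transcription start. These stretches are shown because they are where an ATF4 and C/EBP pair could be looked for next to a measured member, with the matched core in capitals.
ASNS: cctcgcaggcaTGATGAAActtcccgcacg
ATF3: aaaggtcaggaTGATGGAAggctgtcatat
CHAC1: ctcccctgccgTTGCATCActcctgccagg
Each is written 5′ to 3′ on the strand of its gene, from RefSeq on GRCh38.p14, and each stretch was found once near its gene on hg19, the build of the count table. Core positions count from the RefSeq start of each window, which need not be the gene start in the count table. The ASNS stretch lies at chr7:97501770-97501799, with its core at -68 to -61 from the RefSeq start. In the count table this minus-strand gene starts at chr7:97501854, so that the stretch falls inside its span there. The ATF3 stretch lies upstream of its start at chr1:212738547-212738576, core -191 to -184, and the CHAC1 stretch at chr15:41245449-41245478, core -209 to -202 in the reverse orientation. The letters were searched on both strands in 16 windows of the 10 members and were found in 3. Among all 35116 windows in the RefSeq table, 3.62% held them, and 4.46% of the 27305 genes with a window had 1 or more. No match in ATF4, DDIT3, TRIB3, SESN2, DDIT4, PSAT1 or PHGDH says only that these letters are not in those windows.

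Per transcript length, the members spanned a wide range. As mean RPKM, the CPM per kilobase of exon, over the 8 libraries, PHGDH was the highest of the 10 at 187, followed by ATF4 at 151, DDIT4 at 117, PSAT1 at 93.4, ASNS at 72.5, TRIB3 at 36.3, DDIT3 at 13.8, SESN2 at 11.6, CHAC1 at 8.27 and ATF3 at 2.85. The library ranges of neighbours in this order overlapped for ATF4 and DDIT4, DDIT4 and PSAT1, PSAT1 and ASNS, DDIT3 and SESN2, and SESN2 and CHAC1. They did not overlap for PHGDH and ATF4, ASNS and TRIB3, TRIB3 and DDIT3, or CHAC1 and ATF3. Among the RPKM of tested genes PHGDH stood at percentile 97.8 and ATF3 at percentile 38.2.

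Both lines were first compared in DMSO, which asks how the program differed between these lines without drug. In DMSO 3 of the 10 members (30.0%) were higher in BRCA1-null cells at an adjusted p under 0.05 and none was lower, while 42.2% of all tested genes were called in this comparison. The members called were PSAT1 (1.47-fold), TRIB3 (1.25-fold) and DDIT4 (1.18-fold). The count was 5 by the DESeq2 Wald test, which added ATF3 and SESN2, and 1 without BRCA1+ control replicate 1. The median log2 difference of the 10 members was 0.17, against 0.012 for all tested genes. By library, 5 of the 10 members did not overlap between the lines, all higher in BRCA1-null, where 70.9% of all tested genes did not overlap in either direction. With entinostat in both lines, 1 of 10 members was called, PSAT1, beside 39.4% of all tested genes, and the member median was 0.068 against 0.019. Only PSAT1 among the 10 then had libraries that did not overlap, beside 69.5% of all tested genes.

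Entinostat was then set against DMSO within each line, which asks how the program responded to the inhibitor. In BRCA1+ cells 1 of 10 members rose, DDIT4 (1.31-fold), and none was called lower, beside 14.1% of all tested genes called. Libraries did not overlap for 4 of the 10 members, with ATF3, TRIB3 and DDIT4 higher and DDIT3 lower, beside 57.0% of all tested genes. In BRCA1-null cells edgeR called 0 of 10 members, beside 10.8% of all tested genes called. An unadjusted p under 0.05 was reached by 1 member, beside 4856 of the 17714 tested genes. The DESeq2 Wald test called 0 members there and upper-quartile scaling 1. A fit with the replicate number as a block called 4 members in BRCA1+ and 1 in BRCA1-null cells, beside 4319 and 3641 of all tested genes. The labels do not say that these numbers pair libraries. DDIT4 alone had libraries that did not overlap there, beside 54.7% of all tested genes. The member medians were 0.054 in BRCA1+ and -0.043 in BRCA1-null cells, against 0.00041 and 0.019 for all tested genes.

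**Figure D1:**
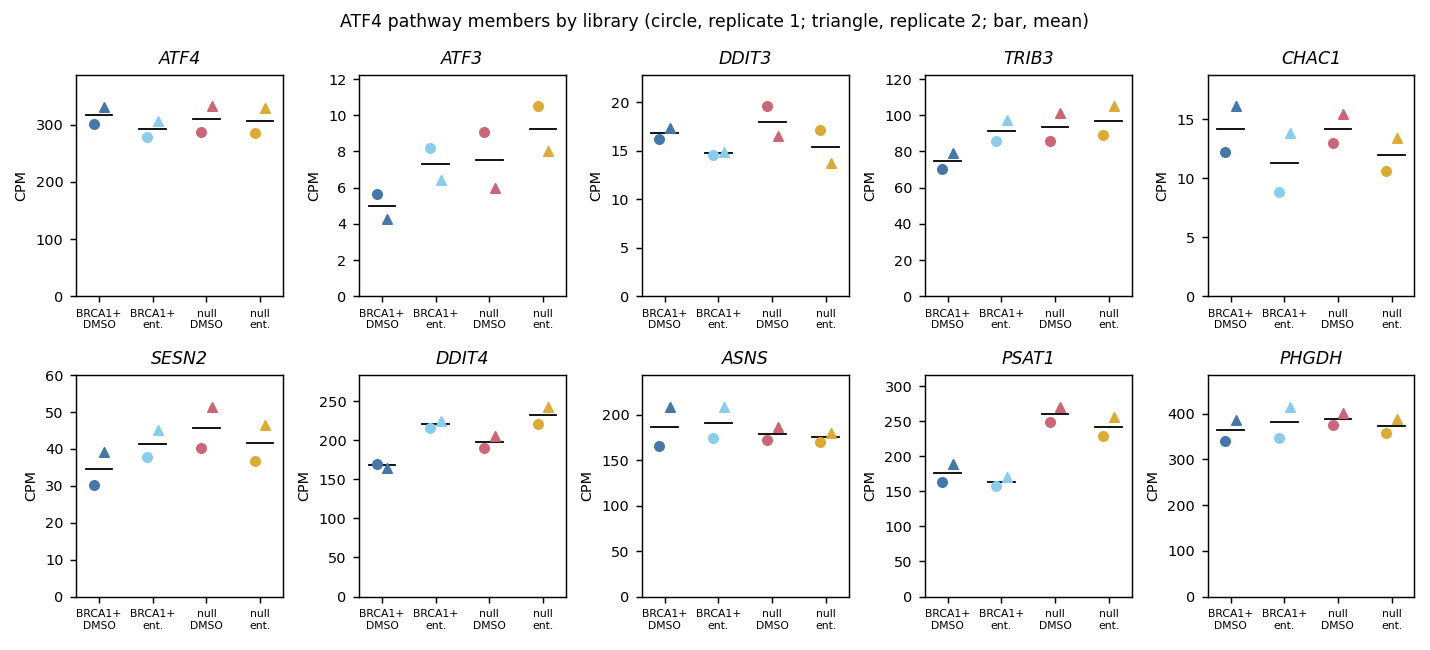
CPM (linear axes from 0) of the 10 members in the 8 libraries, with circles for replicate 1, triangles for replicate 2 and bars for the mean of each line and treatment (ent., entinostat; null, BRCA1-null). The PSAT1 libraries of BRCA1-null cells, at 229 to 271 CPM, sit above all BRCA1+ libraries, at 157 to 189 CPM, while ATF4 spans 278 to 332 CPM with all groups overlapping.

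ATF4 (chr22:39916564-39918691, plus strand), the translationally controlled activator, stood at 301 and 331 CPM in the BRCA1+ DMSO libraries and 278 and 306 CPM in the BRCA1+ entinostat libraries. In BRCA1-null cells it stood at 287 and 332 CPM in DMSO and 285 and 329 CPM in entinostat. All 4 groups overlapped, and the spread within each group exceeded any difference between group means. The log2 difference between lines in DMSO was -0.0301 with a 95% interval of -0.242 to 0.182, and the entinostat effect was -0.112 (-0.325 to 0.101) in BRCA1+ and -0.0128 (-0.225 to 0.199) in BRCA1-null cells. As folds, the 3 intervals ran from 0.845 to 1.13, from 0.799 to 1.07 and from 0.856 to 1.15, and a p-value that misses the threshold does not show equality. The RNA-seq counts carry no information on ATF4 translation or protein. In bulk libraries, a change in the number of expressing cells and in RNA per cell cannot be told apart.

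ATF3 (chr1:212738676-212794119, plus strand), an inducible bZIP factor of the ATF/CREB family and an ATF4 target, was the least abundant member. It was at 5.63 and 4.29 CPM in BRCA1+ DMSO, 8.20 and 6.42 in entinostat-treated BRCA1+, 9.08 and 6.0 in BRCA1-null DMSO and 10.5 and 8.0 in BRCA1-null entinostat. Every other group lay above BRCA1+ DMSO without overlap. The BRCA1-null vs. BRCA1+ difference in DMSO was 0.597 ± 0.247 (SE, log2) and did not pass (adjusted p = 0.0794 in edgeR's quasi-likelihood test, 0.04 in the DESeq2 Wald test), and the entinostat effect in BRCA1+ was 0.547 ± 0.258 (adjusted p = 0.198). Both intervals were wide, 0.0409 to 1.15 and -0.0347 to 1.13. With the replicate number as a block both differences were called (adjusted p = 0.00232 and 0.00994, edgeR).

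DDIT3 (chr12:57910371-57914300, minus strand), which encodes the pro-apoptotic factor CHOP, was at 16.2 and 17.4 CPM in BRCA1+ DMSO, 14.6 and 14.9 in entinostat-treated BRCA1+, 19.6 and 16.5 in BRCA1-null DMSO and 17.1 and 13.7 in BRCA1-null entinostat. Means were lower with entinostat in both lines, by -0.189 (-0.483 to 0.106) in BRCA1+ and -0.217 (-0.498 to 0.0644) in BRCA1-null cells on the log2 scale, and neither passed the test. Its libraries did not overlap in BRCA1+ and did in BRCA1-null cells. DDIT3 overlaps MARS, a tRNA synthetase gene on the opposite strand, by 68 bases, and the sources used here do not say whether counting used strand.

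TRIB3 (chr20:361308-378203, plus strand), a pseudokinase that is induced by ATF4 and restrains it, was at 70.3 and 78.9 CPM in BRCA1+ DMSO and at 85.7 and 101 CPM in BRCA1-null DMSO. With entinostat it was at 85.5 and 97.5 CPM in BRCA1+ and 89.0 and 105 CPM in BRCA1-null cells. The BRCA1+ DMSO libraries were thus the lowest pair, and the other 3 groups overlapped one another. The line difference in DMSO was 0.327 ± 0.112 (adjusted p = 0.0417, edgeR), and it was lost without a filter on low counts (adjusted p = 0.054), without BRCA1+ control replicate 1 (0.208) or 2 (0.0541) and without BRCA1-null control replicate 2 (0.263). The entinostat effect in BRCA1+ cells was 0.296 ± 0.113 (adjusted p = 0.118, edgeR) and did not pass. With the replicate number as a block it was 0.294 ± 0.0487 and was called (adjusted p = 0.00276), though the labels do not say that numbers pair libraries. In entinostat, the lines differed by 0.0787 with an interval of -0.174 to 0.331.

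CHAC1 (chr15:41245636-41248717, plus strand), which breaks down glutathione, was at 12.2 and 16.1 CPM in BRCA1+ DMSO, 8.80 and 13.8 in entinostat-treated BRCA1+, 13.0 and 15.4 in BRCA1-null DMSO and 10.6 and 13.4 in BRCA1-null entinostat. All groups overlapped. The lines differed in DMSO by 0.00335 (-0.456 to 0.463), and the entinostat effects of -0.301 (-0.788 to 0.186) and -0.254 (-0.722 to 0.214) did not pass.

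SESN2 (chr1:28585963-28609002, plus strand), a leucine-sensing restraint on mTORC1, was at 30.1 and 39.1 CPM in BRCA1+ DMSO and 40.2 and 51.5 CPM in BRCA1-null DMSO, with no overlap. With entinostat it was at 37.7 and 45.1 CPM in BRCA1+ and 36.7 and 46.5 CPM in BRCA1-null cells, with means of 41.4 and 41.6 CPM. The line difference was 0.406 ± 0.168 in DMSO (adjusted p = 0.0803 in edgeR, 0.0283 in the DESeq2 Wald test) and -0.000154 ± 0.169 in entinostat. The entinostat effect in BRCA1+ cells was 0.263 ± 0.172 (adjusted p = 0.36, edgeR) and did not pass. With the replicate number as a block the DMSO line difference and this effect were called (adjusted p = 0.000295 and 0.0118, edgeR). The difference between the entinostat effects of the lines, BRCA1-null minus BRCA1+, was -0.406 ± 0.239 (adjusted p = 0.967).

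DDIT4 (chr10:74033677-74035797, plus strand) encodes REDD1, which restrains mTORC1 through the TSC complex. It was at 170 and 165 CPM in BRCA1+ DMSO, 215 and 225 in entinostat-treated BRCA1+, 190 and 205 in BRCA1-null DMSO and 220 and 243 in BRCA1-null entinostat. The DMSO libraries of BRCA1+ cells were the lowest, those of BRCA1-null cells came next, and the entinostat libraries of both lines were the highest and overlapped each other. DDIT4 rose with entinostat in BRCA1+ cells by 0.395 ± 0.066 (1.31-fold, 1.19 to 1.46, adjusted p = 0.00624), a call lost without BRCA1+ entinostat replicate 2 (0.063). In BRCA1-null cells the effect was 0.23 ± 0.0654 (1.17-fold, 1.06 to 1.3) and missed the threshold (adjusted p = 0.0553, edgeR). Upper-quartile scaling (0.0441) and the replicate block (0.014) each called it. Between lines in DMSO it was 0.236 ± 0.0657 higher in BRCA1-null cells (adjusted p = 0.0178), a call lost without BRCA1+ control replicate 1 (0.0533) or 2 (0.0888) or BRCA1-null control replicate 2 (0.121). In entinostat the lines differed by 0.0707 (-0.0771 to 0.219). The line and drug contrasts share the BRCA1+ DMSO libraries.

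ASNS (chr7:97481429-97501854, minus strand), asparagine synthetase, was at 166 and 208 CPM in BRCA1+ DMSO, 174 and 209 in entinostat-treated BRCA1+, 172 and 186 in BRCA1-null DMSO and 170 and 180 in BRCA1-null entinostat. All 4 groups overlapped. The line difference was -0.0614 (-0.316 to 0.193) in DMSO and -0.13 (-0.385 to 0.126) in entinostat, and the entinostat effects were 0.0346 (-0.221 to 0.29) and -0.0335 (-0.288 to 0.221) in BRCA1+ and BRCA1-null cells.

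PSAT1 (chr9:80911991-80945009, plus strand), the aminotransferase of serine synthesis, separated the lines in every library. It was at 164 and 189 CPM in BRCA1+ DMSO, 157 and 170 in entinostat-treated BRCA1+, 249 and 271 in BRCA1-null DMSO and 229 and 256 in BRCA1-null entinostat. The BRCA1-null level exceeded the BRCA1+ level by 0.558 ± 0.086 (log2) in DMSO (1.47-fold, 1.29 to 1.68, adjusted p = 0.000833, edgeR) and by 0.565 ± 0.0865 in entinostat (1.48-fold, 1.29 to 1.69, adjusted p = 0.00082). Both calls held at an adjusted p under 0.05 under each scaling, filter, tool and left-out library tried. Entinostat effects were -0.108 (-0.304 to 0.0879) in BRCA1+ and -0.101 (-0.294 to 0.0916) in BRCA1-null cells. The 20 tested genes nearest to PSAT1 had a median log2 line difference of 0.23 in DMSO, with 8 called higher and 5 lower beside 42.2% of all tested genes called, and those nearest to the other members had medians of -0.17 (ASNS) to 0.46 (PHGDH).

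PHGDH (chr1:120254419-120286849, plus strand), the dehydrogenase that opens serine synthesis ahead of PSAT1, had no call in any comparison. It was at 341 and 386 CPM in BRCA1+ DMSO, 348 and 416 in entinostat-treated BRCA1+, 375 and 402 in BRCA1-null DMSO and 359 and 389 in BRCA1-null entinostat, with all groups overlapping. The line difference was 0.0945 (-0.115 to 0.304) in DMSO and -0.0325 (-0.242 to 0.177) in entinostat, intervals that end below the lower bound of 0.364 for PSAT1 in DMSO. The difference between the 2 genes was not tested. Annotated pseudogenes share sequence with ATF4 (4), ASNS (5) and PSAT1 (4) and none has an entry in the table, so reads from them could have been counted at the parent or lost.

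**Figure D2:**
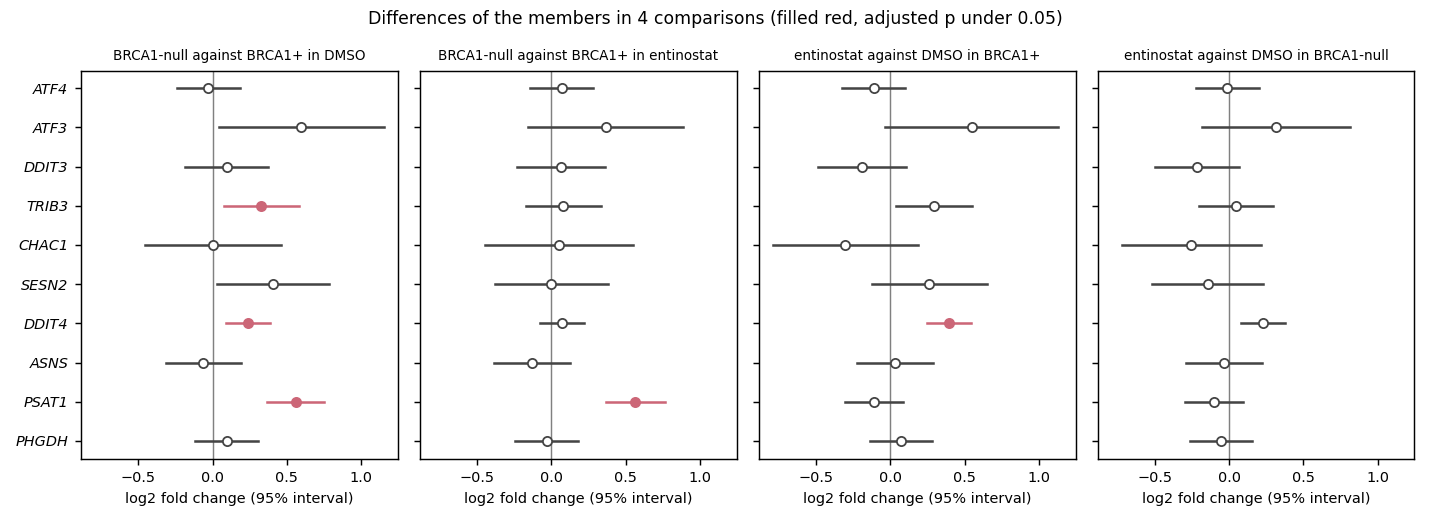
Log2 fold change with its 95% interval (x axis) for the 10 members (y axis) in the 2 line comparisons and the 2 drug comparisons, filled red where the adjusted p was under 0.05. PSAT1 is red in both line panels at 0.558 and 0.565, DDIT4 and TRIB3 in the DMSO line panel, and DDIT4 also in the BRCA1+ drug panel at 0.395.

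The effect of entinostat was compared between the lines by an interaction term. EdgeR called 0 of 10 members, with 0 at an unadjusted p under 0.05 and 0 by the DESeq2 Wald test. Over all tested genes it called 0.0% (827 genes at an unadjusted p under 0.05, 11 by the DESeq2 Wald test). Of the 10 estimates 7 were negative and 3 positive. SESN2 had the largest in size, given above. TRIB3 (-0.248 ± 0.158) and DDIT4 (-0.165 ± 0.0928) had the same sign with adjusted p = 0.967 each (edgeR). The interaction, the DMSO line difference and the BRCA1+ drug effect all use the BRCA1+ DMSO libraries, so their signs are not independent. The intervals ran from -0.606 to 0.109 for TRIB3 and from -0.375 to 0.0439 for DDIT4.

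Beyond the line and the drug, the members varied with the number a library carries in its label. The library numbered 2 was above the library numbered 1 in all 4 groups for 7 of the 10 members (ATF4, TRIB3, CHAC1, SESN2, ASNS, PSAT1 and PHGDH), beside 14.8% of all tested genes. It was below in all 4 groups for 1 member, ATF3, beside 14.3% of all tested genes, and DDIT3 and DDIT4 were mixed. The ratio of number 2 to number 1 ran from 1.10 to 1.16 for ATF4, 1.12 to 1.18 for TRIB3, 1.18 to 1.56 for CHAC1 and 1.2 to 1.3 for SESN2. For the synthesis enzymes it ran from 1.06 to 1.25 (ASNS), 1.08 to 1.15 (PSAT1) and 1.07 to 1.20 (PHGDH), and for ATF3 from 0.661 to 0.783. Among abundant genes (log2 CPM averaging 3 or more), 19.5% were higher in number 2 in all 4 groups. The labels do not say that a number marks a culture, day or sequencing run, and the source of the shared shift was not tested. The pattern was looked for after the values were seen.

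**Figure D3:**
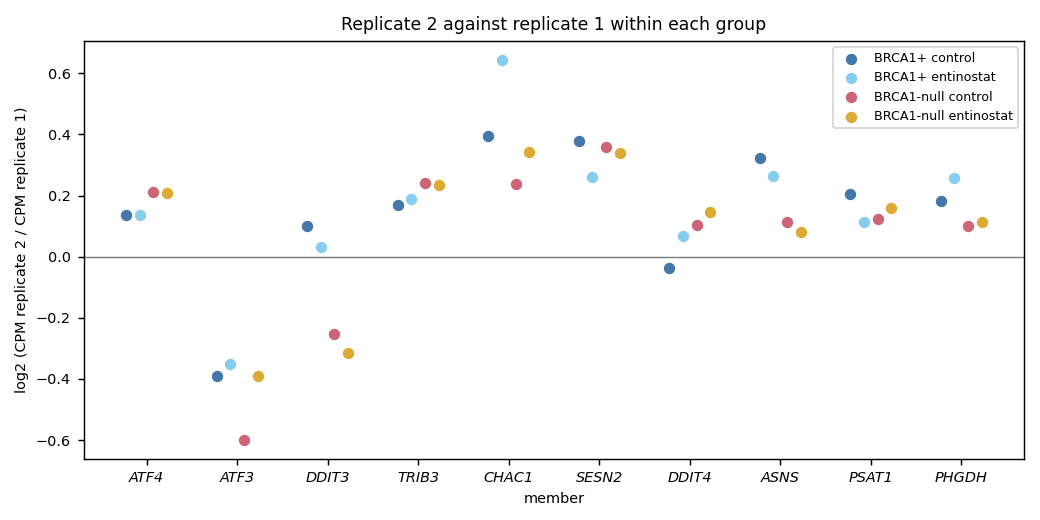
Log2 ratio of the CPM of the library numbered 2 to that numbered 1 (y axis) for each member (x axis), with 1 point per group of line and treatment. The 4 points lie above 0 for ATF4, TRIB3, CHAC1, SESN2, ASNS, PSAT1 and PHGDH and below 0 for ATF3, whose ratios run from 0.661 to 0.783.

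The direction was read in the other genes of the pathway in the same way. Number 2 was above number 1 in all 4 groups for 9 of 13 genes of tRNA charging, 5 of 8 amino acid transporters and 5 of 13 amino acid and one-carbon enzymes. It was so for 3 of 17 genes of eIF2 sensing and reset and 3 of 17 endoplasmic reticulum chaperones, near the 14.8% of all tested genes. Of 13 other stress outputs 3 were higher and 3 lower in number 2 in all 4 groups, and of 8 bZIP partners 1 was higher and 3 lower. Over the 89 tested genes of the 7 lists, 29 (32.6%) were higher and 15 (16.9%) lower, beside 14.8% and 14.3% of all tested genes. The difference in these shares between lists was not tested.

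**Figure D4:**
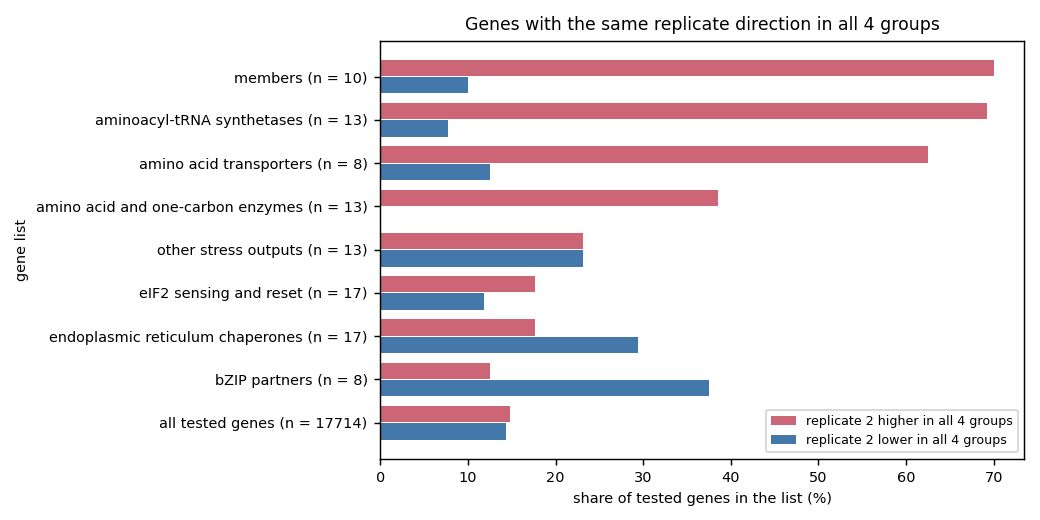
Share of the tested genes of each list (x axis, percent) whose library numbered 2 was above (red) or below (blue) the library numbered 1 in all 4 groups. Members reach 70.0% and genes of tRNA charging 69.2% higher, beside 14.8% of all tested genes and 17.6% of endoplasmic reticulum chaperones.

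Across the 45 pairs of members, Pearson's r of log2 CPM over the 8 libraries had a median of 0.323, with 31 pairs positive. For the 21 pairs among the 7 members higher in number 2, the median was 0.576 over the 8 libraries and 0.898 for deviations from the group means, with a range of 0.778 to 0.997. With 2 libraries a group, those deviations hold 1 value per group, and the points share libraries, so the values only restate the shift by number. The gene most like a member over the 8 libraries was searched among 10396 genes. It was LCN2 for ATF3, OS9 for DDIT3, DRG2 for TRIB3, PSKH1 for CHAC1 and DCLRE1C for SESN2. It was AHNAK2 for DDIT4, BORA for ASNS, SNORD16 for PSAT1 and KCTD10 for PHGDH. Their r ran from 0.944 to 0.993. Each is the highest r of a large search over few libraries, so a high value alone marks no particular relation. An r over 0.9 was reached by 900 genes for PSAT1, 153 for DDIT4 and 3 for PHGDH.

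Of the other pathway genes, 90 were listed in 7 groups and 89 were tested. The DMSO comparison of the lines called 39 of 89, with 21 higher in BRCA1-null and 18 in BRCA1+ cells, which is 43.8% beside 42.2% of all tested genes, and in entinostat 35 were called, or 39.3% beside 39.4%. Entinostat changed 13 of 89 in BRCA1+ cells (4 higher, 9 lower, 14.6% beside 14.1%) and 8 of 89 in BRCA1-null cells (2 higher, 6 lower, 8.99% beside 10.8%). The count of 13 fell to 8 without BRCA1+ control replicate 1 and to 2 or 3 without BRCA1+ control replicate 2 or either BRCA1+ entinostat library. The count of 8 fell to 2 without BRCA1-null control replicate 2 and to 3 without BRCA1-null entinostat replicate 1, and the count of 35 fell to 22 without BRCA1+ entinostat replicate 1.

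Of the 17 genes of eIF2 sensing and reset, the DMSO comparison called 9, or 52.9% beside 42.2% of all tested genes, of which 6 had the higher mean in BRCA1-null cells and 3 the lower. IMPACT, which holds back the amino acid sensor GCN2, was higher by 0.539 ± 0.0667 (log2, adjusted p = 0.000236, edgeR), and PPP1R15A, the stress-induced eIF2 phosphatase subunit GADD34, by 0.517 ± 0.0935 (adjusted p = 0.00205). Of the exchange factor subunits, EIF2B1 was higher (0.378 ± 0.0706), and EIF2B3 (-0.51 ± 0.0841) and EIF2B4 (-0.34 ± 0.0619) were lower. Mean EIF2B5 was 100 CPM in BRCA1-null and 86.7 CPM in BRCA1+ DMSO libraries, and mean EIF2B2 was 51.0 and 57.1 CPM. EIF2AK3, an eIF2 kinase, was the other gene called lower (-0.434 ± 0.114, adjusted p = 0.0138, edgeR). Its call was lost without BRCA1+ control replicate 1 or BRCA1-null control replicate 2. With entinostat edgeR called 0 of the 17 in either line, beside 14.1% and 10.8% of all tested genes in BRCA1+ and BRCA1-null cells. An unadjusted p under 0.05 was reached by 5 in BRCA1+ and 2 in BRCA1-null cells, beside 5129 and 4856 of 17714 tested genes. The DESeq2 Wald test called 0. The replicate block called 2 lower in BRCA1+, and 1 higher and 1 lower in BRCA1-null cells, beside 4319 and 3641 of all tested genes. Of the 13 genes of tRNA charging, 2 were lower with entinostat in BRCA1+ cells, TARS (-0.249 ± 0.0646) and XPOT (-0.189 ± 0.0531), or 15.4% beside 14.1%, and upper-quartile scaling called 0. Both calls were lost without any 1 of the 4 BRCA1+ libraries or without BRCA1-null control replicate 1. That of XPOT was also lost without BRCA1-null control replicate 2. It was lost too with DESeq2 size factors, with a stricter filter on low counts and in a fit of the BRCA1+ libraries alone.

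ATF5, a paralog of ATF4 that is also under translational control, was called in both lines with entinostat. It fell by 1.06 ± 0.0745 (log2, adjusted p = 0.000204, edgeR) with entinostat in BRCA1+ cells, from a mean of 44.9 to 21.5 CPM, and fell by 0.564 ± 0.0676 in BRCA1-null cells, from 67.7 to 45.7 CPM (adjusted p = 0.00246). Both calls held in all 15 alternatives. GDF15, a secreted stress cytokine, rose with entinostat from 16.8 to 45.0 CPM in the BRCA1+ line, a log2 change of 1.43 ± 0.259 (adjusted p = 0.00844). In the BRCA1-null line it went from 6.99 to 15.9 CPM, a log2 change of 1.22 ± 0.308 (adjusted p = 0.0381). The first of these was lost without BRCA1+ control or entinostat replicate 2, and the second without BRCA1-null control replicate 2, BRCA1-null entinostat replicate 1 or either BRCA1+ control library, in the DESeq2 Wald test and in a fit of the BRCA1-null libraries alone. Amino acid transporters had 3 of 8 genes lower with entinostat in each line, beside 6.0% of all tested genes called lower in BRCA1+ and 3.19% in BRCA1-null cells. All 8 log2 values were below 0, although upper-quartile scaling turned 2 of the 8 in BRCA1+ cells above 0. SLC7A5, the large neutral amino acid carrier, fell by 0.492 ± 0.0725 in BRCA1+ cells (530 to 376 CPM, adjusted p = 0.00394), and SLC6A9, a glycine transporter, fell by 0.546 ± 0.0881 in BRCA1-null cells (15.7 to 10.8 CPM, adjusted p = 0.00752). These 2 calls held in all 15 alternatives, and the other 4 did not. In BRCA1+ cells SLC6A9 was lost without BRCA1+ control replicate 2 or either BRCA1+ entinostat library. SLC3A2 was lost without any of those 3 or BRCA1-null control replicate 1, and with upper-quartile factors or a fit of the BRCA1+ libraries alone. In BRCA1-null cells SLC7A5 and SLC1A5 were each lost without BRCA1-null control replicate 2 or BRCA1-null entinostat replicate 1.

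Among paralogs, TRIB1 differed between the DMSO groups by 0.658 ± 0.121 (adjusted p = 0.00228), higher in the BRCA1-null line as its relative TRIB3 was, while SESN3 was lower (-0.587 ± 0.169, adjusted p = 0.0209), opposite in sign to SESN2 and lost without BRCA1+ control replicate 1 or BRCA1-null control replicate 2. CHAC2, JDP2 and ATF5 also passed in that comparison, at -0.301, -0.242 and 0.592, and the ATF5 call held in all 15 alternatives. CHAC2 was called in 7 of the 15 and was lost without any 1 of the 4 DMSO libraries, and JDP2 was called in 9 and lost without BRCA1+ control replicate 1 or either BRCA1-null control library. TRIB2 (-0.668), SESN1 (-0.318) and DDIT4L (0.908) did not pass. PCK2, mitochondrial phosphoenolpyruvate carboxykinase and a target of ATF4, stood at 60.0 CPM in BRCA1-null and 29.2 CPM in BRCA1+ DMSO libraries. Its log2 difference of 1.04 ± 0.0698 (adjusted p = 7.58e-06, edgeR) was larger than that of PSAT1. Of its list of 13 amino acid and one-carbon enzymes, 4 were called higher and 2 lower there, or 46.2% beside 42.2% of all tested genes. Of the 8 amino acid transporters 1 was called higher and 3 lower, with SLC1A4 at -0.693 ± 0.0663. Among 13 other stress outputs 3 were called higher and 4 lower, with GDF15 at -1.29 ± 0.307. This GDF15 call did not hold in all 15 alternatives, over which the log2 difference ran from -1.77 to -0.882. The 2 BRCA1-null DMSO libraries were at 9.12 and 4.86 CPM of GDF15. HSPA5, the main chaperone of the endoplasmic reticulum, rose with entinostat by 0.234 ± 0.0628 where BRCA1 was restored (adjusted p = 0.0383) and by 0.28 ± 0.0626 where it was not (adjusted p = 0.0252), with the first lost without any 1 of the 4 BRCA1+ libraries. The second was lost in a fit of the BRCA1-null libraries alone, without either BRCA1-null control library and without BRCA1-null entinostat replicate 2. HSPA5 was the only 1 of the 17 genes listed as endoplasmic reticulum chaperones that was called with entinostat in either line. That is 5.88% in each, beside 14.1% of all tested genes in BRCA1+ and 10.8% in BRCA1-null cells.

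**Figure D5:**
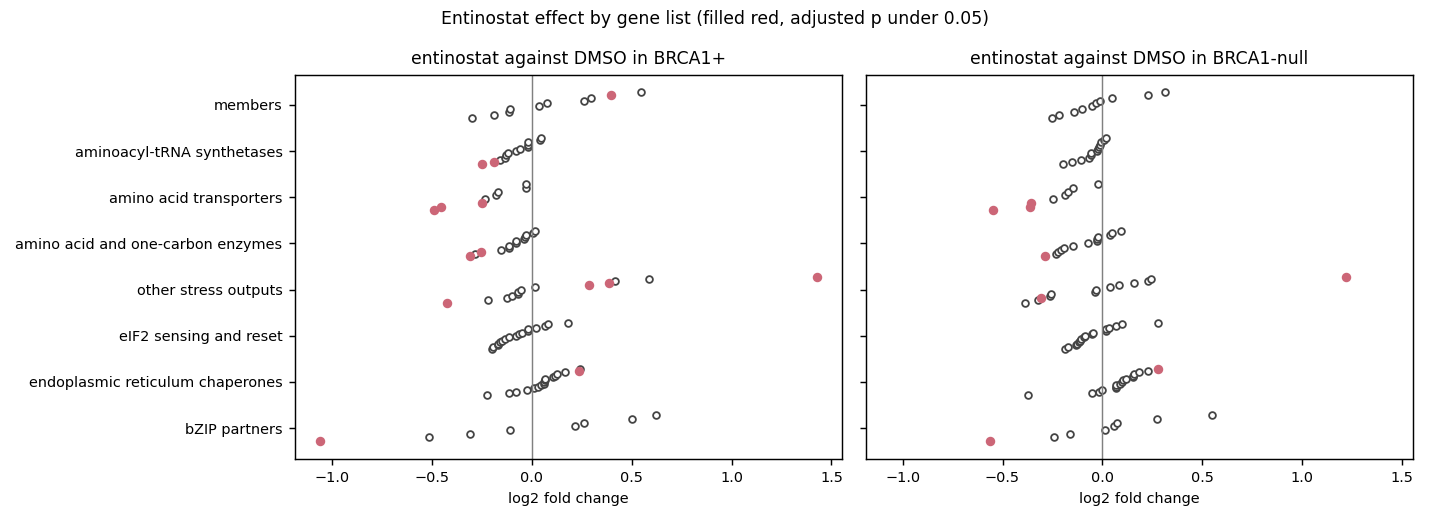
Log2 fold change with entinostat (x axis) of every tested gene in the member list and 7 other pathway lists (y axis), in BRCA1+ (left) and BRCA1-null cells (right), filled red where the adjusted p was under 0.05. ATF5 at -1.06 and GDF15 at 1.43 are the extremes on the left, and the transporter points lie below 0 in both panels, of which upper-quartile scaling turned 2 on the left.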

How the data were processed

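RNA-seq was made from poly(A) RNA of the 8 UWB1.289 libraries. Per the paper's methods and the submitters' processing notes, the authors aligned reads to hg19 with TopHat, counted reads per gene with NGSUtils and tested with edgeR, while strand and multi-mapped reads are not given in the sources used here. The deposited values were whole-number read counts per gene, 1 column per library, and 1 entry with no gene name held 0 counts and was left out.

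Counts were analysed in R 4.3.3 with edgeR 4.0.16 (TMM, filterByExpr by the 4 groups, quasi-likelihood F-test, 8 libraries in 1 fit with 4 residual degrees of freedom, biological coefficient of variation 9.04%). P-values were two-sided and adjusted by Benjamini-Hochberg over 17714 genes, and genes were called at an adjusted p under 0.05. SE is the log2 fold change over the square root of F. RPKM used the exon lengths in the deposited table. Depth was 31900158 to 53549893 counts a library, so that 3 counts, which allow for counting error only, were 0.0552 to 0.0946 CPM. The edgeR step was tested on simulated data.

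The 10 members and the pathway lists were chosen with earlier results of these data known. Named genes were all members and paralogs, up to 3 called genes in each direction per list and comparison, of which a selection is printed, and the gene with the highest correlation to each member, which for ATF4 is not reported here. The fit was repeated with each library left out, with the size factors or the Wald test of DESeq2 1.42.0, with upper-quartile scaling, unfiltered or with genes of log2 CPM averaging 1 or more, with a replicate block, on the compared groups alone, and with calls limited to log2 changes of 1 or more in size. Promoter windows matched all 10 members by symbol. The shift by replicate number was added after the data were seen.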

Additional observations from a re-analysis of the deposited data

Results flagged for a closer look

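BCAT1, the cytosolic branched-chain aminotransferase among the amino acid enzymes listed with the members, drew attention because its entinostat libraries lay below its DMSO libraries in BRCA1+ cells (means 121 and 124 CPM) and above them in BRCA1-null cells (134 and 131 CPM). The entinostat effect in BRCA1-null minus that in BRCA1+ cells was 0.0757 ± 0.0734 on the log2 scale (adjusted p = 0.975, edgeR interaction term), so the opposite directions did not pass a test of the difference. No member had opposite non-overlapping directions in the lines, and the share of all tested genes that did is not given here. In either direction, libraries did not overlap for 57.0% of all tested genes in BRCA1+ and 54.7% in BRCA1-null cells.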

How the results depend on the processing

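Of 740 recomputed member values, 659 kept their direction and side of the threshold, 8 lost and 13 gained a call, and 60 changed sign. The library numbers are shared by the groups, but the labels do not say that they pair libraries: deviations of same-numbered libraries correlated at 0.0523 to 0.287 over the 6 pairs of groups. A fit with the replicate block called 5 members between lines in DMSO, 2 in entinostat, 4 for the drug in the BRCA1+ line and 1 for it in the BRCA1-null line (3, 1, 1 and 0 without it). Over all tested genes it called 8954, 8394, 4319 and 3641 (7472, 6973, 2505 and 1906 without it). The calls added were ATF3 (adjusted p = 0.00232) and SESN2 (0.000295) between lines in DMSO, ATF3 in entinostat (0.0329), TRIB3 (0.00276), ATF3 (0.00994) and SESN2 (0.0118) for the drug in the BRCA1+ line and DDIT4 in the BRCA1-null line (0.014). It called 53, 23 and 29 other pathway genes in the last 3 of these comparisons. In DMSO the DESeq2 Wald test called 5 members. Upper-quartile factors called 1 member in BRCA1-null cells with entinostat and 8 other pathway genes in BRCA1+ cells, and a fit of only the groups compared called 4 other pathway genes for the drug in the BRCA1-null line. Calls limited to log2 changes of 1 or more in size left 0 members in each comparison and 2, 2, 2 and 1 other pathway genes. Leaving out each library gave 1 to 4 and 0 to 1 members for the line in DMSO and entinostat in BRCA1+, and 26 to 42, 22 to 36, 2 to 13 and 2 to 8 other pathway genes in the 4 comparisons. Sign changes at small values were ATF4 between lines in DMSO (0.0131 with upper-quartile factors, 0.00991 with the stricter filter), CHAC1 there (-0.00049 with no filter), SESN2 between lines in entinostat (0.000958 stricter filter, 0.00788 replicate block) and the PSAT1 interaction (-0.0025 DESeq2 size factors, -0.0367 upper-quartile, -0.0313 stricter filter, -0.00223 DESeq2 Wald). Over the left-out libraries, log2 ranges that crossed 0 were, between lines in DMSO, ATF4 -0.14 to 0.0915, DDIT3 -0.012 to 0.219, CHAC1 -0.175 to 0.221 and ASNS -0.215 to 0.109. Between lines in entinostat they were ATF4 -0.0382 to 0.169, DDIT3 -0.104 to 0.211, TRIB3 -0.042 to 0.192, CHAC1 -0.215 to 0.437, SESN2 -0.178 to 0.162, DDIT4 -0.00313 to 0.141, ASNS -0.267 to 0.00571 and PHGDH -0.168 to 0.0985. For entinostat in BRCA1-null cells they were ATF4 -0.138 to 0.0969, TRIB3 -0.0913 to 0.175, SESN2 -0.332 to 0.0494, ASNS -0.113 to 0.0245 and PHGDH -0.126 to 0.00236, and in BRCA1+ cells ASNS -0.116 to 0.206 and PHGDH -0.0661 to 0.2. For the interaction they were ATF4 -0.0329 to 0.209, ATF3 -0.516 to 0.0507, DDIT3 -0.199 to 0.117, CHAC1 -0.217 to 0.435, ASNS -0.239 to 0.0757, PSAT1 -0.0994 to 0.0975 and PHGDH -0.261 to 0.0057. None of these was called in the fit of all libraries, and the cause of the changes was not tested. With 2 libraries a group, the intervals of the rarer members ATF3 and CHAC1 were the widest of the 10.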
